A study of Mus musculus with 6 samples.

Results

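The MAP kinase genes of the ERK, JNK and p38 groups were examined in the spleen of cyclophosphamide-treated mice. The 9 genes were Mapk3 and Mapk7 of the ERK group, Mapk8, Mapk9 and Mapk10 of the JNK group, and Mapk11, Mapk12, Mapk13 and Mapk14 of the p38 group. They were chosen by name, and every array probe that RefSeq assigns to one of them was taken, which gave 15 probes among the 20659 genes with a symbol on the array. Of these 9 genes, 7 could be tested, each by a probe well above background on all 6 arrays, whereas the probes of Mapk8 and Mapk10 were too dim.

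Spleen RNA of male ICR mice, an outbred strain, aged 8 weeks at the start, was hybridized to 6 one-colour Agilent mRNA arrays. Cyclophosphamide, an alkylating drug that kills dividing lymphocytes, had been injected into the mice of both groups for 5 days at 40 mg/kg. The MOD group (3 arrays, numbered 1, 2 and 3) then received water by gavage, and the SA-H group (3 arrays, numbered 4, 5 and 6) received schisandrol A (SA), a lignan of Schisandra fruit, at 1 g/kg per day for 4 weeks. The study used 240 mice in all, and the labels do not say whether each array stands for 1 mouse or for pooled mice, so the p-values below measure only the spread between these arrays, which may be technical. The MOD arrays are labelled with day 5 and the SA-H arrays with day 28, and if these labels hold, the treatment with SA and the sampling day cannot be told apart. No array of mice without cyclophosphamide was analysed here, and the comparison therefore asks how the SA-H group differed from the MOD group, not from untreated mice.

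MAP kinases stand at the end of a relay in which a MAP3 kinase phosphorylates a MAP2 kinase, which then activates the MAP kinase. The ERK relay starts from Ras proteins and carries growth and antigen receptor signals, and the JNK and p38 relays respond mostly to stress and cytokines. In lymphocytes and macrophages of the spleen these kinases take part in activation, survival and cytokine production. They are switched by phosphorylation, which an mRNA array does not measure.

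The bases before the start sites of Mapk12, Mapk11 and Mapk9 are shown because Mapk12 and Mapk9 were 2 of the 3 genes whose groups did not overlap, and Mapk11 is the neighbour of Mapk12 on the same strand of chromosome 15. RefSeq start sites of the GRCm38.p6 assembly were given for 8 of the 9 genes, with 12 start sites in all and none for Mapk3. The array design was annotated on an older mouse build, and no coordinate of it is used. Each sequence holds the 250 bases before the start site, read 5′ to 3′ on the strand of the gene, and capitals mark matches on either strand to the letters GGGCGG (GC box) and CCAAT. The letters TGACGTCA (CRE) and TGANTCA (AP-1) were searched for as well and had no match in these sequences.
Mapk12, chr15:89140704-89140953, minus strand: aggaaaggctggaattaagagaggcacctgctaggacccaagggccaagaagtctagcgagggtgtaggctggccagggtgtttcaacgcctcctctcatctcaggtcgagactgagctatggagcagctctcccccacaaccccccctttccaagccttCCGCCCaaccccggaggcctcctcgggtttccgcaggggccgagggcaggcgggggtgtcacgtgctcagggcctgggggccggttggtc
Mapk11, chr15:89149607-89149856, minus strand: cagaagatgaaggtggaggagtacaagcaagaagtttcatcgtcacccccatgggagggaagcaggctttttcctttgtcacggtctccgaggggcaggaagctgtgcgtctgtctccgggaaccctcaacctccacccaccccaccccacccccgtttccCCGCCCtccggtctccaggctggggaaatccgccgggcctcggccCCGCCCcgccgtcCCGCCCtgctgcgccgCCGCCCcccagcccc
Mapk9, chr11:49846501-49846750, plus strand: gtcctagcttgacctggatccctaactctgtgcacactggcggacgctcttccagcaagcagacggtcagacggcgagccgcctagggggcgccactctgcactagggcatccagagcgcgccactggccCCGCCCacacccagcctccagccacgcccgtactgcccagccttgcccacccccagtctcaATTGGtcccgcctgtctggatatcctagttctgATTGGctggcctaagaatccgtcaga

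These sequences were rich in G and C, with 64.4% for Mapk12, 68.0% for Mapk11 and 63.6% for Mapk9, against a median of 52.4% over 32851 promoter windows of the same length. The GC box letters occurred once before Mapk12, 4 times before Mapk11 and once before Mapk9, and 32.7% of all windows held them. Mapk9 also had 2 matches to CCAAT, which 33.8% of all windows held. The CRE letters were in 1.55% and the AP-1 letters in 6.75% of all windows. These matches describe the letters in the windows only.

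The depth of the arrays was uneven. Between 43.1% and 73.9% of the 43020 spots were well above background, with MOD 2 (72.2%) and SA-H 5 (73.9%) far above the other arrays, and the 75th percentile of the signal was lowest on SA-H 4 (220, against 433 to 868 elsewhere). Levels below are log2 signals relative to the 75th percentile of their own array, and levels of different genes are not compared, since each probe binds with its own strength. Of 14474 genes and unnamed targets tested with limma, 0 had a Benjamini-Hochberg adjusted p under 0.05 (0% of all tested). The smallest adjusted p was 0.0712, and 3377 had an unadjusted p under 0.05. The analysis of variance named in the study's methods also gave 0 after adjustment, with 2828 before it. Spleen markers were present, with 8 of 10 B cell and 9 of 10 T cell genes tested. The protocol of the RNA extraction mentions liver besides spleen, and 5 of 7 liver markers, among them Alb, Apoa1 and Ttr, were too dim to test. The 2 tested were Serpina1a and Cyp2e1. Serpina1a was well above background on all 6 arrays and lower on every SA-H array (difference -0.65, limma, adjusted p = 0.155). Cyp2e1 was well above background on 5 arrays, with overlapping groups and a difference of 0.49. In the authors' own table of log2 values, 3 of the 6 columns (MOD 3, SA-H 4 and SA-H 5) correlated best with the scanner values of an array of another label once each probe was centred. The MOD 3 column had a correlation of -0.29 with its own array over 13530 probes. Scan day 1 held MOD 1, MOD 3 and SA-H 6, scan day 2 held MOD 2 and SA-H 4, and SA-H 5 was alone on the third.

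Of the 7 tested MAP kinase genes, Mapk12 was higher in the SA-H group, Mapk3 and Mapk9 were lower, and Mapk7, Mapk11, Mapk13 and Mapk14 had overlapping groups. None of these differences passed an adjusted p of 0.05. At an unadjusted p under 0.05, 1 gene was higher, where 10.8% of all tested genes were, and 2 genes were lower, where 12.5% of all were. The groups did not overlap for the same 3 genes, 1 higher (11.9% of all tested) and 2 lower (20.7% of all tested). With so few genes these counts lie close to what the whole array showed. The median difference of the 7 genes was 0.09 on the log2 scale, beside -0.04 for all tested. Scaling by the median of each array in place of the 75th percentile moved the median of all tested by -0.32, to -0.36. Under that scaling the MAP kinase genes with an unadjusted p under 0.05 were 1 higher and 0 lower. The differences of Mapk3 and Mapk9 were then larger in size, -0.93 and -0.95, with a larger SE of 0.50 each and unadjusted p-values of 0.063 and 0.058, and relative to the median of all tested genes they were the same as before, at -0.57 and -0.59.

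**Figure D1:**
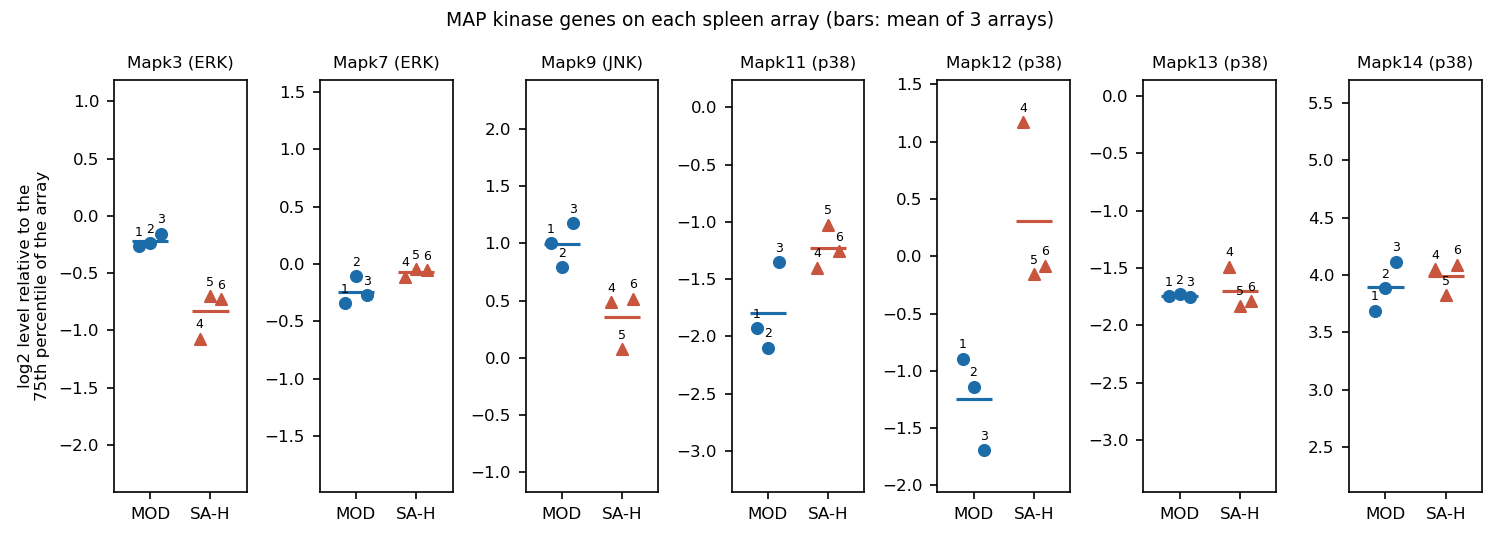
Log2 level of each tested MAP kinase gene relative to the 75th percentile of its array, with points for the 3 MOD and 3 SA-H arrays (numbered) and bars for the group means. All panels span the same number of log2 units around their own centre. The groups are apart for Mapk3, Mapk9 and Mapk12 and overlap for the other 4 genes.

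In the ERK group, Mapk3 encodes ERK1, which the MAP2 kinases of the Ras relay activate. Its log2 level was -0.27, -0.24 and -0.16 on MOD arrays 1, 2 and 3, against -1.07, -0.70 and -0.73 on SA-H arrays 4, 5 and 6. All SA-H arrays lay below all MOD arrays, and SA-H 4 was the lowest. The group means were -0.22 ± 0.06 (SD, n = 3) and -0.83 ± 0.21 (SD, n = 3). The difference was -0.61 on the log2 scale with an SE of 0.23 and a 95% interval from -1.14 to -0.08 (limma, adjusted p = 0.175, unadjusted p = 0.0294). The difference within scan day 1 was -0.51 and that within scan day 2 was -0.83. Leaving out 1 array gave -0.68 to -0.49. The unadjusted p then lay over 0.05 without any 1 of the MOD arrays or SA-H 6 (0.065 to 0.082), and was 0.040 without SA-H 4 or SA-H 5.

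The second probe of Mapk3 was dimmer. Its level was -3.20, -2.78 and -3.21 on the MOD arrays, against -4.50, -3.71 and -3.68 on the SA-H arrays. It too was lower on every SA-H array than on every MOD array. It was well above background on 2 MOD arrays and 1 SA-H array only, and so was not tested.

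Mapk7 encodes ERK5, a large kinase with its own MAP2 kinase. Its level was -0.34, -0.11 and -0.27 on the MOD arrays, against -0.11, -0.04 and -0.05 on the SA-H arrays. SA-H 4 and MOD 2 were alike, so that the groups overlapped. The difference of 0.17 had a 95% interval from -0.33 to 0.67 (limma, adjusted p = 0.634), and it was -0.15 under median scaling and -0.27 in the authors' table.

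In the JNK group, Mapk9 encodes JNK2, which with JNK1 is made in most cell types and phosphorylates Jun. The level of its brighter probe was 1.00, 0.79 and 1.18 on the MOD arrays, against 0.48, 0.07 and 0.51 on the SA-H arrays. Every SA-H array was below every MOD array, with SA-H 5 the lowest. The means were 0.99 ± 0.19 (SD, n = 3) and 0.36 ± 0.25 (SD, n = 3). This difference of -0.63 had an SE of 0.25 and a 95% interval from -1.21 to -0.05 (limma, adjusted p = 0.190, unadjusted p = 0.0365). It was -0.57 within scan day 1 and -0.31 within scan day 2. With scan day as a block it was -0.46 (unadjusted p = 0.128), and in the authors' table it was -0.16. Leaving out 1 array gave -0.73 to -0.49, with an unadjusted p of 0.028 without SA-H 4 and of 0.051 to 0.111 without any other array.

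The other kept probe of Mapk9 was also lower on the SA-H arrays. It entered the tests only through the MOD arrays, where it was brighter, so its fitted difference is a description. Its level was -1.79, -2.34 and -1.99 on the MOD arrays, against -4.55, -2.94 and -2.63 on the SA-H arrays. SA-H 4, where this probe was not well above background, was the lowest by far. Its difference was -1.33 (limma on single probes, adjusted p = 0.178 over 16902 probes, unadjusted p = 0.0320).

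Mapk8 encodes JNK1, and each of its 3 probes was too dim to compare. The first was well above background on MOD 2 and SA-H 5 only, where its level was -3.59 and -3.25. The second was well above background on the same arrays, at -4.67 and -4.37, and the third on none. MOD 2 and SA-H 5 are the arrays with the largest share of spots above background, and no Mapk8 probe was called well above background on the other 4 arrays.

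Mapk10 encodes JNK3, known mainly from brain and heart. Its first probe was well above background on MOD 2 and SA-H 5, at -3.87 and -5.20. Its second probe passed on SA-H 5 alone, at -2.95. These levels do not allow a comparison of the groups.

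**Figure D2:**
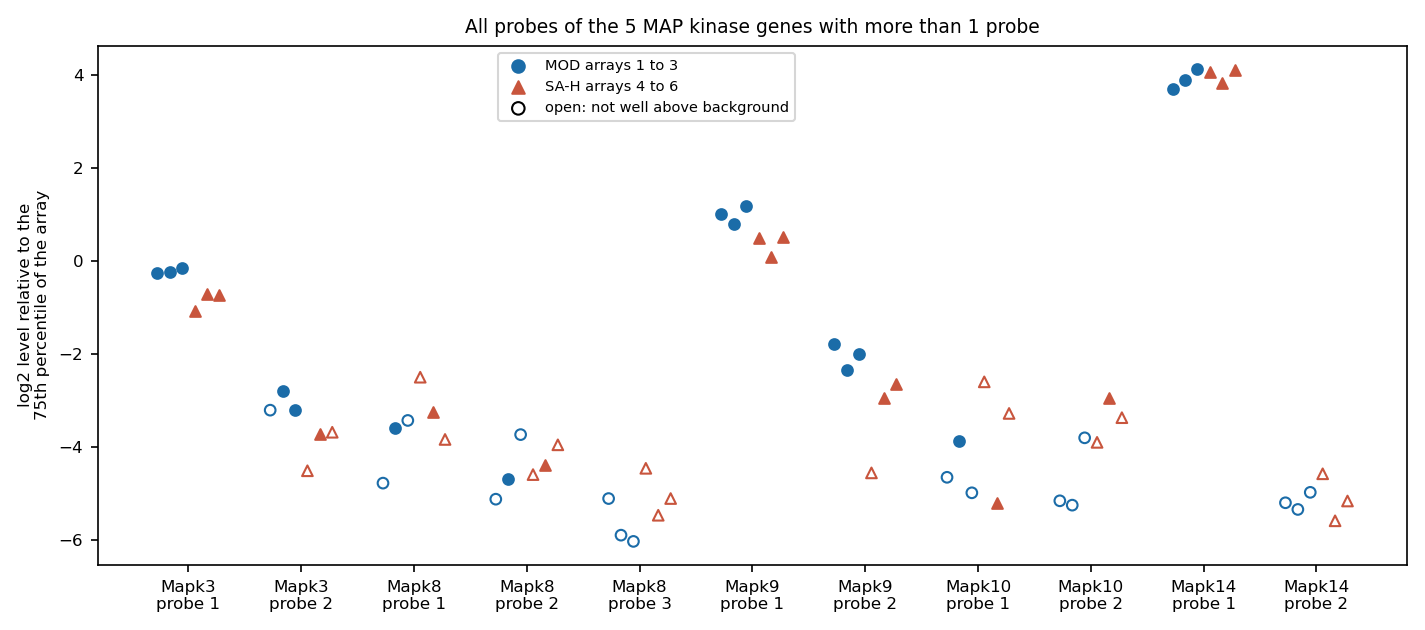
Log2 level of all probes of the 5 MAP kinase genes with more than 1 probe, scaled to the 75th percentile of the array. Circles are MOD arrays 1 to 3 and triangles SA-H arrays 4 to 6 from left to right, and open symbols are not well above background. Both probes of Mapk3 and both of Mapk9 are lower on the SA-H arrays, and most symbols of Mapk8 and Mapk10 are open.

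In the p38 group, Mapk12 encodes p38γ, best known from skeletal muscle. It had the largest difference in size of the 7 tested genes. Its level was -0.90, -1.14 and -1.70 on the MOD arrays, against 1.17, -0.16 and -0.08 on the SA-H arrays. All SA-H arrays lay above all MOD arrays, and SA-H 4 stood more than 1 log2 unit above the other SA-H arrays. The means were -1.24 ± 0.41 (SD, n = 3) and 0.31 ± 0.75 (SD, n = 3). The SA-H group was higher by 1.55 on the log2 scale with an SE of 0.42, which is 2.94-fold with a 95% interval from 1.48-fold to 5.83-fold (limma, adjusted p = 0.109, unadjusted p = 0.0074). Among the tested MAP kinase genes it alone combined a 2-fold or larger difference with an unadjusted p under 0.05, and 7.74% of all tested genes did so in this direction.

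Without SA-H 4 the difference in Mapk12 was 1.12, and over all arrays left out in turn it was 1.12 to 1.79. It was 1.21 within scan day 1 and 2.31 within scan day 2. With scan day as a block, where SA-H 5 adds nothing to the comparison, the adjusted p was 0.047, and with a random block for the slide scan it was 0.075. In the authors' table, where 3 of the 6 columns did not correlate best with the array of the same label, the difference was 0.16 (limma, adjusted p = 0.733).

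Markers of other tissues were read beside Mapk12. None of 7 skeletal muscle markers was well above background often enough to be tested. Of 7 neuron markers 4 were tested, and their summed signal relative to the 75th percentile was 2.13 to 2.76 on the MOD arrays and 2.19 to 12.9 on the SA-H arrays. SA-H 4 was the highest, and Tubb3, Rbfox3 and Gap43 were too dim to test. Most of that sum was Snap25, whose level was 3.44 on SA-H 4, 2.35 on SA-H 6 and 0.38 to 0.86 on the other 4 arrays, so that its groups overlapped (difference 1.54, limma, adjusted p = 0.206). Syt1, Stmn2 and Syp had differences of 0.65, 0.80 and -0.01, all with overlapping groups. Of 10 neutrophil markers 9 were tested, with sums of 270 to 363 on the MOD arrays and 275 to 851 on the SA-H arrays, again highest on SA-H 4. These markers did not move one way, with 5 differences above and 4 below 0, and with 1 gene higher (Mmp8) and 1 lower (Ngp) at an unadjusted p under 0.05. A highest sum on SA-H 4 was not particular to these lists. The sum of erythroid markers was 376 there, against 192 to 313 on the other arrays. That of the transcription factors listed below was 545, against 182 to 332. The sums of B cell, T cell and macrophage markers were highest on other arrays. The part of any of these cell types in the level of Mapk12 was not tested. In whole spleen a change in the number of cells of a type and a change in RNA per cell cannot be told apart.

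Mapk11 encodes p38β, and its gene lies next to Mapk12. Its level was -1.93, -2.10 and -1.35 on the MOD arrays, against -1.40, -1.03 and -1.26 on the SA-H arrays. MOD 3 lay among the SA-H arrays, and the other MOD arrays were lower than all of them. The difference was 0.57 with an SE of 0.28 and a 95% interval from -0.09 to 1.22 (limma, adjusted p = 0.262). It was 0.38 and 0.70 within scan days 1 and 2 and 0.86 in the authors' table.

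Mapk13 encodes p38δ. Its level was -1.75, -1.73 and -1.75 on the MOD arrays, against -1.49, -1.83 and -1.79 on the SA-H arrays. The MOD values lay between those of the SA-H arrays. The difference was 0.04 with a 95% interval from -0.48 to 0.56 (limma, adjusted p = 0.924), and it was -0.28 under median scaling. In the authors' table it was -0.53 (limma, adjusted p = 0.025).

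Mapk14 encodes p38α, the main p38 kinase of immune cells and the target of most p38 inhibitors. Its brighter probe was at 3.69, 3.89 and 4.12 on the MOD arrays, against 4.05, 3.82 and 4.09 on the SA-H arrays. The groups overlapped fully. The difference was 0.09 with an SE of 0.23 and a 95% interval from -0.46 to 0.64 (limma, adjusted p = 0.829), and it was -0.23 under median scaling. The second probe of Mapk14 was not well above background on any array.

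**Figure D3:**
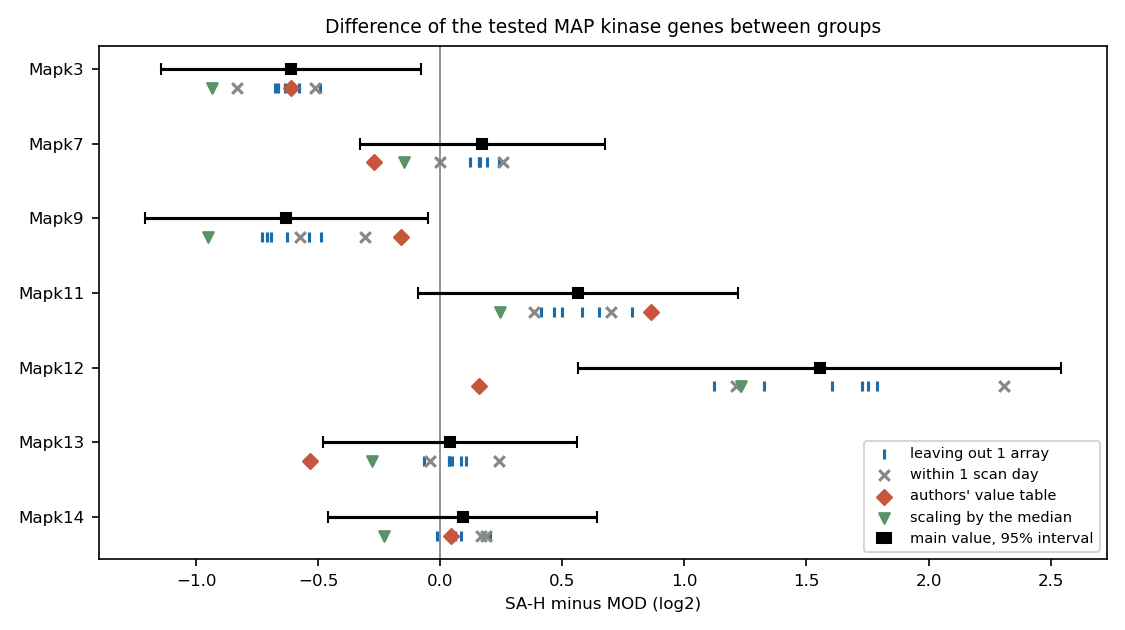
Difference between the groups (SA-H minus MOD, log2) for the 7 tested MAP kinase genes. Squares with bars are the limma estimate and its 95% interval, and the smaller marks below them are the estimates with 1 array left out, within 1 scan day, from the authors' table and under median scaling. The marks of Mapk3, Mapk9, Mapk11 and Mapk12 stay on 1 side of 0, and those of the other 3 genes lie on both sides.

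The genes whose levels ran most alike with Mapk3 over the 6 arrays were Bclaf3 (Pearson r = 0.998), Hnrnph2 (0.997) and Ugdh (0.997), among 9064 genes compared. These had differences of -1.06, -0.83 and -1.43. With 6 arrays in 2 groups such values are common, and 849 genes had an r over 0.9 with Mapk3. For Mapk14 the genes most alike were Slc39a7 (r = 0.969), Ifngr1 (0.966) and Dcaf11 (0.960), and 28 genes had an r over 0.9.

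The rest of the pathway was read from 8 lists with 117 genes, of which 87 were tested. At an unadjusted p under 0.05, 5 of these were higher in the SA-H group (5.75%, beside 10.8% of all tested) and 10 were lower (11.5%, beside 12.5% of all). Under median scaling the split was 2 higher and 16 lower, and among probes well above background on all 6 arrays it was 6 and 6. A gene that entered the tests through only the group where it was brighter had to differ, so these counts are a description. None passed an adjusted p of 0.05, and the median difference was -0.18, beside -0.04 for all tested. The counts given for each list below stand beside the same shares of all tested genes, 10.8% higher and 12.5% lower.

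Ras proteins and the factors that load them with GTP had 14 of 18 genes tested, with 1 higher and 1 lower at an unadjusted p under 0.05. Rasgrp4, an exchange factor of mast cells and other myeloid cells, was at -2.23, -2.38 and -2.36 on the MOD arrays, against -1.11, -1.32 and -0.95 on the SA-H arrays. The groups were well apart, with a difference of 1.20 (SE 0.22, limma, adjusted p = 0.081). A second probe gave 0.86 (limma on single probes, unadjusted p = 0.132). That probe passed the background flag on 4 arrays, and so entered the tests through 1 group only. Its difference is therefore a description. Sos2, the exchange factor that Grb2 brings to receptors, had a difference of -0.69 (adjusted p = 0.181). The adaptor Grb2 and the phosphatase Ptpn11 had differences of 0.07 and 0.05, which were -0.25 and -0.27 under median scaling.

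Of the Ras GTPase-activating proteins and Sprouty family inhibitors, which switch the relay off, 7 of 15 were tested, with 1 higher and 1 lower. Rasal3, a GTPase-activating protein of blood cells, was higher by 0.93 (SE 0.31, limma, adjusted p = 0.152), and Rasa3 had a difference of 0.52. Spred1, an inhibitor of Ras signalling, had a level of -2.53, -1.96 and -2.23 on the MOD arrays, against -4.52, -3.22 and -4.26 on the SA-H arrays, and it was well above background on all 3 MOD arrays but on 1 of the 3 SA-H arrays. Its fitted difference of -1.76 therefore rests partly on signals near background, and it was 0.02 in the authors' table. Rasa2 had a difference of -0.68, and 0.10 in that table.

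Of the MAP3 kinases 16 of 22 were tested, with 1 higher and 1 lower. Map3k12, a kinase of the JNK relay known from neurons, was at -3.26, -3.49 and -3.78 on the MOD arrays, against -0.98, -1.82 and -1.51 on the SA-H arrays. It was well above background on all 3 SA-H arrays but on 1 of the 3 MOD arrays, so that the fitted difference of 2.07 rests partly on signals near background. Map3k11 had a difference of -1.49 (SE 0.61, adjusted p = 0.205), and it was -0.72 without SA-H 4, where it was not well above background. Map3k1, which acts mainly on the JNK relay, had a difference of 0.17, and it was -0.15 under median scaling.

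The MAP2 kinases act directly on the MAP kinases, and 6 of 7 were tested. With an unadjusted p under 0.05 there were 0 higher and 2 lower genes, where 10.8% and 12.5% of all tested genes were. The median difference was -0.53, beside -0.04 for all tested. It lies between the differences of Map2k1 (-0.72) and Map2k2 (-0.33), and that of Map2k1 depends on SA-H 4, as given below. Both lower genes, Map2k3 and Map2k6, encode kinases that activate the p38 group. Map2k3 was at 1.48, 1.26 and 0.59 on the MOD arrays, against -1.41, 0.30 and 0.26 on the SA-H arrays. The difference was -1.39 (SE 0.51, limma, adjusted p = 0.172), and without SA-H 4, the lowest array, it was -0.83. Map2k6 was at -1.36, -1.71 and -0.98 on the MOD arrays, against -2.98, -2.15 and -1.83 on the SA-H arrays, with a difference of -0.97 (SE 0.37, limma, adjusted p = 0.179) and 0.14 in the authors' table. Map2k6 was not well above background on SA-H 4, and so entered the tests only through the MOD arrays, where it was brighter. Map2k1 and Map2k2, which activate ERK1, had differences of -0.72 and -0.33, and another kept probe of Map2k2 gave -0.75. For Map2k1 the SA-H 4 array alone was low, at -1.54 against 0.46 to 1.16 on the other 5 arrays, and the difference without it was 0.09.

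Of the scaffolds that hold the relay together, 12 of 15 were tested, with 0 higher and 2 lower. Lamtor3, which holds MAP2 kinase and ERK on late endosomes, was at 2.07, 2.04 and 2.12 on the MOD arrays, against 1.48, 1.46 and 1.42 on the SA-H arrays. The groups were tight and apart, with a difference of -0.63 (SE 0.21, limma, adjusted p = 0.149), but its other kept probes gave -0.08 and -0.82, and 0.06 came from the authors' values. Lamtor1, of the same complex, had a difference of -0.69 (adjusted p = 0.163), and Lamtor2 one of 0.69 in the other direction. The arrestin Arrb1 had a difference of -0.51.

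The dual-specificity phosphatases, which remove the activating phosphates from MAP kinases, had 9 of 13 tested, with 0 higher and 1 lower. Dusp8, which acts on JNK and p38, was at -0.70, -1.01 and -1.12 on the MOD arrays, against -1.56, -1.96 and -1.62 on the SA-H arrays. The difference was -0.77 (SE 0.25, limma, adjusted p = 0.141). Dusp7, which acts on ERK, had a difference of 0.49. Dusp2 and Dusp3 had differences of 0.19 and 0.17, which were -0.13 and -0.15 under median scaling. Another kept probe of Dusp3 gave 0.82 (limma on single probes, unadjusted p = 0.057), so that its probes differed.

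Of the kinases that MAP kinases activate, 9 of 11 were tested, with 2 higher and 1 lower. Mapkapk2, the p38 substrate that stabilizes cytokine mRNAs, was at 1.54, 1.21 and 2.04 on the MOD arrays, against 2.88, 2.83 and 2.31 on the SA-H arrays. It was higher on every SA-H array, by 1.08 on average (SE 0.31, limma, adjusted p = 0.116). Mknk1, a kinase of the translation factor eIF4E, was at -2.47, -1.96 and -2.81 on the MOD arrays, against -0.69, -0.18 and -1.84 on the SA-H arrays, with a difference of 1.51 (SE 0.46, adjusted p = 0.131). The lower gene was Rps6ka5, at a fitted difference of -1.32, named after its value had been seen and well above background on 4 of the 6 arrays. Mknk2 and Rps6ka1 had differences of 0.13 and -0.07, of which Mknk2 was -0.19 under median scaling.

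Of 16 transcription factors that MAP kinases phosphorylate, 14 were tested, with 0 higher and 1 lower. Elk4, a partner of serum response factor, had a fitted difference of -0.68, which rests partly on signals near background, since it was well above background on all 3 MOD arrays but on 1 of the 3 SA-H arrays. Its relative Elk1 had a difference of 0.78 with overlapping groups. Atf1 was lower on every SA-H array, by 0.46 in the mean, at an unadjusted p of 0.061. Mef2a had a difference of -0.95 with overlapping groups.

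**Figure D4:**
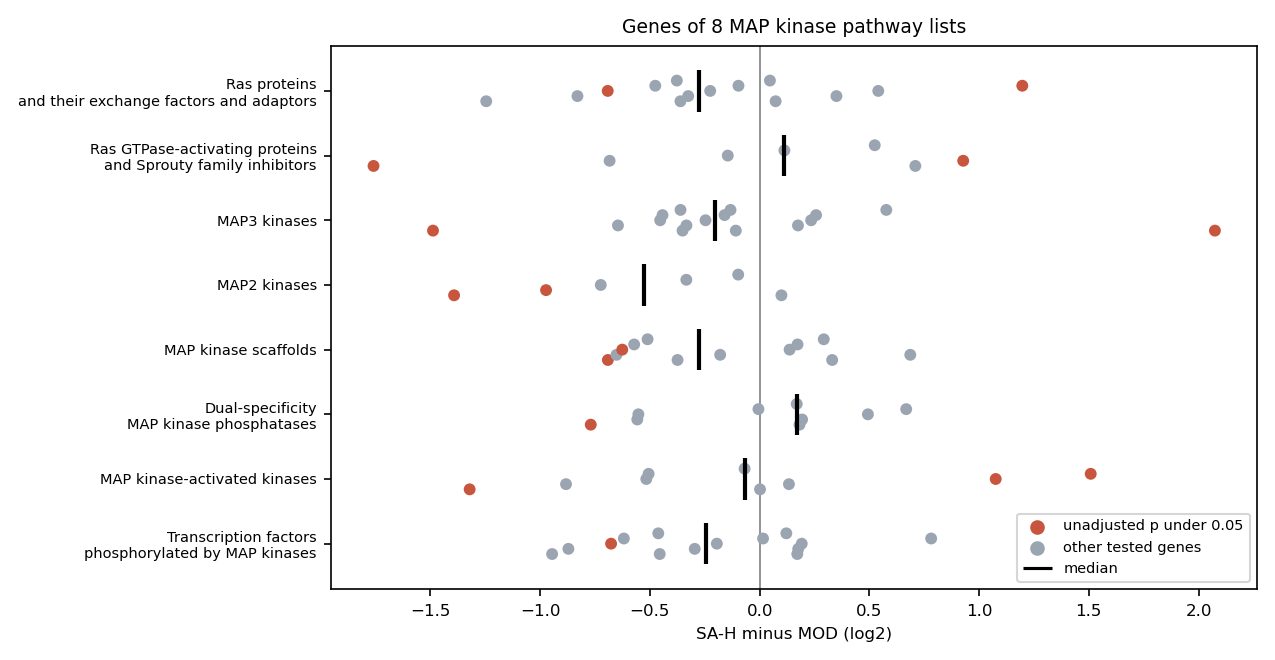
Difference between the groups (SA-H minus MOD, log2) for the 87 tested genes of 8 MAP kinase pathway lists. Each point is 1 gene, coloured where its unadjusted p was under 0.05, and the black bar is the median of the list. The lowest median, -0.53, belongs to the 6 tested MAP2 kinases and depends on Map2k1, whose difference was 0.09 without SA-H 4. Coloured points are few on either side.

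Markers of other cells were also read beside Mapk3 and Mapk9. Of 7 fat markers 6 were tested, 5 of them lower at an unadjusted p under 0.05, but only 2 of the 6 were well above background on every array, and the others entered through the MOD arrays, where they were brighter. Their summed signals were 9.45 to 13.8 on the MOD arrays and 5.02 to 5.97 on the SA-H arrays. Of 10 dividing cell markers all 10 were tested and 7 were lower at that limit, where 12.5% of all tested genes were. Mki67, Cdk1 and Aurkb were not, with differences of -0.10, 0.10 and 2.24 and overlapping groups. The sums of the dividing cell markers were 87.5 to 112 and 58.4 to 100. The sums of B cell markers were 105 to 136 and 113 to 138, and those of T cell markers 16.2 to 31.1 and 14.9 to 22.0. All 10 erythroid markers were tested, with a median difference of -0.70, 9 differences below 0 and 4 genes lower at that limit. Their sums were 249 to 313 and 192 to 376. Of 10 macrophage markers 9 were tested, with a median of -0.59, 7 differences below 0, and 2 genes lower and 1 higher. Their sums were 74.2 to 89.0 and 63.6 to 94.3. The part of these markers in the lower levels of Mapk3, Mapk9, Map2k3 and Map2k6 was not tested.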

How the data were processed

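Cy3-labelled spleen RNA was read on 1-colour Agilent arrays. For each spot the authors deposited an intensity and flags for outliers and for a signal well above background, from Agilent Feature Extraction 11.0.1.1, which per the file headers subtracts background and removes gradients within an array. The deposited value table holds values taken as log2, made by the authors in a way not given in the sources used here. Each of its columns has a median of 5.34, and its log base was read from its range. In the MOD 1 column 0.0025% of values sat at the lowest value of the column, against 23.8% to 31.5% in the other columns. The table served as an alternative only.

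Outlier spots were left out, spots of a probe were averaged, and the processed signal was taken as log2 relative to the 75th percentile of its array. Probes were named through RefSeq accessions (27234 of 39429 probes). Probes entered the tests if the flag for a signal well above background was set on all 3 arrays of the MOD or of the SA-H group, and the brightest kept probe stood for its gene. The SA-H and MOD groups were compared in R 4.3.3 using limma 3.58.1 (Benjamini-Hochberg adjustment over 14474 genes and unnamed targets). The method was checked on simulated data. Figures and other steps used Python 3.11.15, numpy 2.4.6, pandas 2.3.3 and matplotlib 3.10.9, with version 1.17.8 of data.table in R.

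The genes and lists were chosen with earlier results of these data known. Named are the 9 genes with every probe, and per list the 2 brightest tested genes and up to 2 more with the smallest p. For Mapk3, Mapk8 and Mapk14, which the study lists as nodes of its network, the 3 genes with the highest r were named, but Mapk8 was too dim. That network joined genes called on these arrays with targets from a database search. Alternatives were another background correction, scaling, filter, probe rule, test or batch term, the authors' table, and each array left out in turn. The normexp correction (offset 50) was run on the median spot signal in place of the mean signal that had been planned. Some genes that this rule takes, and other kinases of the family, are not reported here.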

Additional observations from a re-analysis of the deposited data

How the results depend on the processing

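No paired analysis was possible because the groups share no replicate numbers. Over all tested genes, the count with an adjusted p under 0.05 was 0, and it was 210 with normexp, 1 with quantile normalization, 1094 with median scaling, 1 with probes well above background on all 6 arrays, 1075 with scan day as a block, 1779 in the authors' table and 0 to 29 with 1 array left out (29 without SA-H 4). Among the MAP kinase genes, 1 (Mapk12) passed with scan day as a block and 2 (Mapk3 and Mapk13) in the authors' table, against 0 otherwise, and 0 to 0 with 1 array left out. At an unadjusted p under 0.05, 2 were lower, and this became 0 with median scaling, 0 with no filter on dim probes, 1 with scan day as a block, 1 with a random block for the slide scan, and 0 to 2 with 1 array left out (2 only without SA-H 4). The differences of Mapk3 and Mapk9 did not go away where these calls were lost, at -0.93 and -0.95 with median scaling and at -0.61 and -0.63, as before, with no filter, where the SE was larger. The count of 1 higher became 2 with no filter, by Mapk10, and 1 to 2 with 1 array left out, by Mapk11 without MOD 3.

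In the pathway lists the count of 5 higher became 8 with quantile normalization, 2 with median scaling, 25 in the authors' table and 4 to 10 with 1 array left out (10 without SA-H 4). The count of 10 lower became 16 with median scaling, 6 with probes well above background on all 6 arrays, 4 with no filter, and 2 to 11 with 1 array left out (2 without MOD 1 and 6 without MOD 3). The count of 0 at an adjusted p under 0.05 became 6 with median scaling, 3 with scan day as a block, 13 in the authors' table and 0 to 0 with 1 array left out.

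Of 126 values of the 7 MAP kinase genes under alternatives, 109 kept their direction and their side of the threshold, 2 passed it newly, 10 in 3 genes turned direction, and 5 within 1 scan day moved by more than the spread between arrays. Of 553 values of 31 pathway genes, 489 kept both and 28 in 14 genes turned. Median scaling moves every gene alike by -0.32 and leaves each gene's place relative to the median of all genes as it was, so its turns, 3 of the 10 and 6 of the 28, follow from that shift. Under it Mapk7 was -0.15, Mapk13 -0.28, Mapk14 -0.23, Grb2 -0.25, Ptpn11 -0.27, Map3k1 -0.15, Dusp2 -0.13, Dusp3 -0.15 and Mknk2 -0.19. In the authors' table Mapk7 was -0.27, Mapk13 -0.53, Ptpn11 -0.17, Rasa2 0.10, Spred1 0.019, Map3k1 -0.22, Map2k1 0.46, Map2k2 0.050, Map2k6 0.14, Lamtor3 0.061 and Elk1 -0.034. With quantile normalization Mapk13 was -0.081, Mapk14 -0.0083 and Mknk2 -0.23, and with normexp Mapk14 was -0.063, Ptpn11 -0.047 and Mknk2 -0.14. With a block Rps6ka1 was 0.13 (scan day) and 0.044 (slide scan). With 1 array left out Mapk13 ranged from -0.068 to 0.10, Mapk14 from -0.012 to 0.20, Ptpn11 from -0.064 to 0.20, Map2k1 from -1.16 to 0.090, Dusp2 from -0.0054 to 0.47, Dusp3 from -0.025 to 0.32, Mknk2 from -0.12 to 0.36 and Rps6ka1 from -0.20 to 0.11. For settings other than median scaling, the cause of these turns was not tested. The number of arrays limits the precision, and signal over background limits Mapk8 and Mapk10, which were not called well above background on 4 of the 6 arrays.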
